A study of Mus musculus with 12 samples.

Results

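The nuclear genes of oxidative phosphorylation were followed in γδ and CD4+ T cells of mice on a control or an MCD diet. All gene symbols in the deposited count table that begin as Nduf, Sdh, Uqcr, Cyc1, Cox4 to Cox8 or Atp5 do were collected, symbols marked -ps were left out, and those with 100 or more reads summed over 12 libraries were kept. Of 52459 genes in the table, 78 met this rule. Grouped by symbol, these members were 36 of complex I, 4 of complex II, 9 of complex III, 12 of complex IV and 17 of complex V. They held 455836 reads. Atp5s and Atp5sl are counted and summed with complex V by symbol, but their products are not subunits of it.

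Oxidative phosphorylation takes place at the inner mitochondrial membrane. Complexes I and II pass electrons from NADH and succinate to ubiquinone, complex III passes them on to cytochrome c and complex IV to oxygen, and complexes I, III and IV pump protons whose return through complex V, the ATP synthase, drives the making of ATP. Most subunits are encoded in the nucleus and imported, while a small catalytic set is encoded in mitochondrial DNA, and T cells are known to raise their mitochondrial respiration together with glycolysis when they are activated.

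The study sequenced RNA of T cells sorted by flow cytometry straight into lysis buffer. Either diet was begun at 7 weeks of age and lasted 6 weeks. MCD is the usual short name of a diet low in methionine and choline that brings on fatty liver with inflammation, and the labels do not spell it out. There were 6 groups of 2 libraries: CD4+ T cells of wild-type C57BL/6 mice fed the control diet (replicates 2 and 3) or MCD (replicates 1 and 3), CD4+ T cells of γδTCR-/- mice, which lack γδ T cells, fed the control diet (replicates 1 and 2) or MCD (replicates 1 and 2), and γδ T cells of wild-type C57BL/6 mice fed the control diet (replicates 6 and 7) or MCD (replicates 2 and 4). The title of γδ MCD replicate 2 carries a second code, D1, which also stands in the title of wild-type CD4+ MCD replicate 1, and the labels do not say whether the libraries share a mouse. The labels name no tissue, no sort markers, no sex and no background strain of the γδTCR-/- mice. They also do not say that replicates came from separate mice, so p-values measure the spread between these libraries only.

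Total counts ran from 17035638 to 23203603 per library, of which mitochondrial genes took 40.8% to 56.8%. Levels are given as CPM, counts scaled to a common library size, after correction by the trimmed mean of M-values (TMM), whose factors were 0.657 to 0.858 in the γδ libraries and 0.953 to 1.27 in the CD4+ libraries. The cell labels matched the defining transcripts: Cd4 lay at 632 to 1448 CPM in the 8 CD4+ libraries and at 0.975 to 4.29 CPM in the 4 γδ libraries, and Trdc, the constant part of the δ receptor chain, lay at 0.231 to 7.93 and 538 to 733 CPM. These low levels in sorted CD4+ cells of both genotypes do not check the γδTCR-/- label. In bulk samples fewer cells of a type and less RNA per cell cannot be told apart. The γδ libraries of the MCD diet detected fewer members: 61 and 62 members had 10 or more reads there, against 72 to 76 in the other 10 libraries, while of all 16218 genes tested 8876 and 9951 had 10 or more reads there and 11578 to 13094 elsewhere. In them 9 and 5 members had no read, against 0 to 3 elsewhere. The median ratio between the 2 replicates of a group was 2.41 in γδ MCD, where 30 of 78 members differed over 4-fold, and 1.53 to 1.84 in the other 5 groups. Precision also followed read number: the median replicate ratio was 1.33 for the 10 members with the most reads and 1.84 for the other 68.

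Per length, the members covered a wide range of levels. These are deposited FPKM, fragments scaled by gene length and by a size factor of each library. Means over 12 libraries are given with the range. Atp5b, the catalytic β subunit of the ATP synthase, stood highest at 137 FPKM (64.1 to 191) and held 31.3% of all member reads. Its partner in the F1 head, Atp5a1, lay at 45.5 FPKM (21.3 to 80.5). Both subunits occur in equal number in the enzyme, and the ratio of Atp5b to Atp5a1 ran from 1.35 to 4.98 over the libraries, above 1 in all 12. The lowest member of complex V was Atp5g2, one of the genes for the proton-carrying c subunit, at 0.483 FPKM.

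Complex IV hands electrons to oxygen. Among the members grouped with it by symbol, Cox7a2l, a relative of Cox7a2, led at 41.5 FPKM (11.5 to 65.3), followed by Cox8a at 32.1 FPKM (10.3 to 131). In complex II, Sdha, the flavoprotein that oxidises succinate, lay at 35.1 FPKM (20.5 to 88.4) and Sdhb, its iron-sulphur partner, at 5.07 FPKM (0.95 to 12.6). Sdha exceeded Sdhb in all 12 libraries. Complex I was led by the accessory subunits Ndufb9 at 22.2 FPKM (5.69 to 46.3) and Ndufa10 at 21.3 FPKM (8.36 to 73.2) and was lowest in Ndufs5 at 0.578 FPKM, although 21 members have near-identical pseudogenes and reads on those of Ndufs5 came to 67.2% of its own. Complex III was led by Uqcrh at 15.05 FPKM (3.04 to 35.7) and Uqcr10 at 13.2 FPKM (0.14 to 32.0), with Uqcr11 lowest at 1.49 FPKM.

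Tissue-restricted isoforms had few or no reads. Cox4i2, Ndufa4l2, Cox8c and Cox7b2 had no read in any library, and Cox6a2, the heart and muscle isoform, had 1. Cox6b2, the testis isoform, had 38 reads, all in γδ libraries. Cox8b had 48 reads. Cox7a1, the heart and muscle isoform of Cox7a2, passed the 100-read rule with 207 reads but not the filter on low counts, so 77 of 78 members were tested.

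Promoters are shown for 4 members on which the comparisons below turn: Ndufa10 and Atp5b, the members that passed a test, and Ndufa8 and Sdha, which lay on opposite sides of 0 in the diet comparison of γδ T cells. The 250 bases before the RefSeq transcription start (GRCm38.p6, read 5′ to 3′ on the gene's strand) are chr1:92473759-92474008 on the minus strand for Ndufa10, chr10:128083057-128083306 on the plus strand for Atp5b, chr2:36049339-36049588 on the minus strand for Ndufa8 and chr13:74350241-74350490 on the minus strand for Sdha. Capitals mark matches on either strand to the 10-letter core motif of nuclear respiratory factor 1 (NRF1), a known regulator of respiratory chain genes.
Ndufa10: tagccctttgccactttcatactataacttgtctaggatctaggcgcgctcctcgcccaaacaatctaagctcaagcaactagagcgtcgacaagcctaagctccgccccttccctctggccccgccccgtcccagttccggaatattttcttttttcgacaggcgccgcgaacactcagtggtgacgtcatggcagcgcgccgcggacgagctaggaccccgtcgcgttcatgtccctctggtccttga
Atp5b: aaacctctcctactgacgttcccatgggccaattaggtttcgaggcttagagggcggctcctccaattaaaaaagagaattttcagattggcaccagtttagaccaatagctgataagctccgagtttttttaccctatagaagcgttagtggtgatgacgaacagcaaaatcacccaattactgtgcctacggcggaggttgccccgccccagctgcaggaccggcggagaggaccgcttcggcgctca
Ndufa8: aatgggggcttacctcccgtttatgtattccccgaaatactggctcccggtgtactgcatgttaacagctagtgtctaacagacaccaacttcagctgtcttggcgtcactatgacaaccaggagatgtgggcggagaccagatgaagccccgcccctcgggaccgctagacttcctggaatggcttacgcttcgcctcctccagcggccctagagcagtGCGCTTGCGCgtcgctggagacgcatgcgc
Sdha: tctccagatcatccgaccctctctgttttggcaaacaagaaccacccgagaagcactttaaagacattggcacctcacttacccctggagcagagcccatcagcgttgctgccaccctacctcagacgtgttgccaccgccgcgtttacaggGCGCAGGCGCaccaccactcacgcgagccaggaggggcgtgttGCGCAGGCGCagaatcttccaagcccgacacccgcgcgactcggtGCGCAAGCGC
The Sdha stretch held 3 such matches and the Ndufa8 stretch 1, and those of Ndufa10 and Atp5b held none. RefSeq gave promoters (250 bases before to 50 after the start) for 63 of the 78 members, and the NRF1 core stood on either strand in 17 of them (27.0%) against 5.19% of 27025 genes. CCGGAAG, the core of ETS factors such as GABP, stood in 16 (25.4%) against 9.93%, AAGATGGCG, the core of YY1, in 7 (11.1%) against 1.64%, and TATAAA in 5 (7.94%) against 15.7%. No 2 of these motifs overlapped in a member, and 34 of the 63 held at least 1 of the first 3. A match is a description of the letters in this window, not of binding.

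The summed level of each complex is shown by library.

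**Figure D1:**
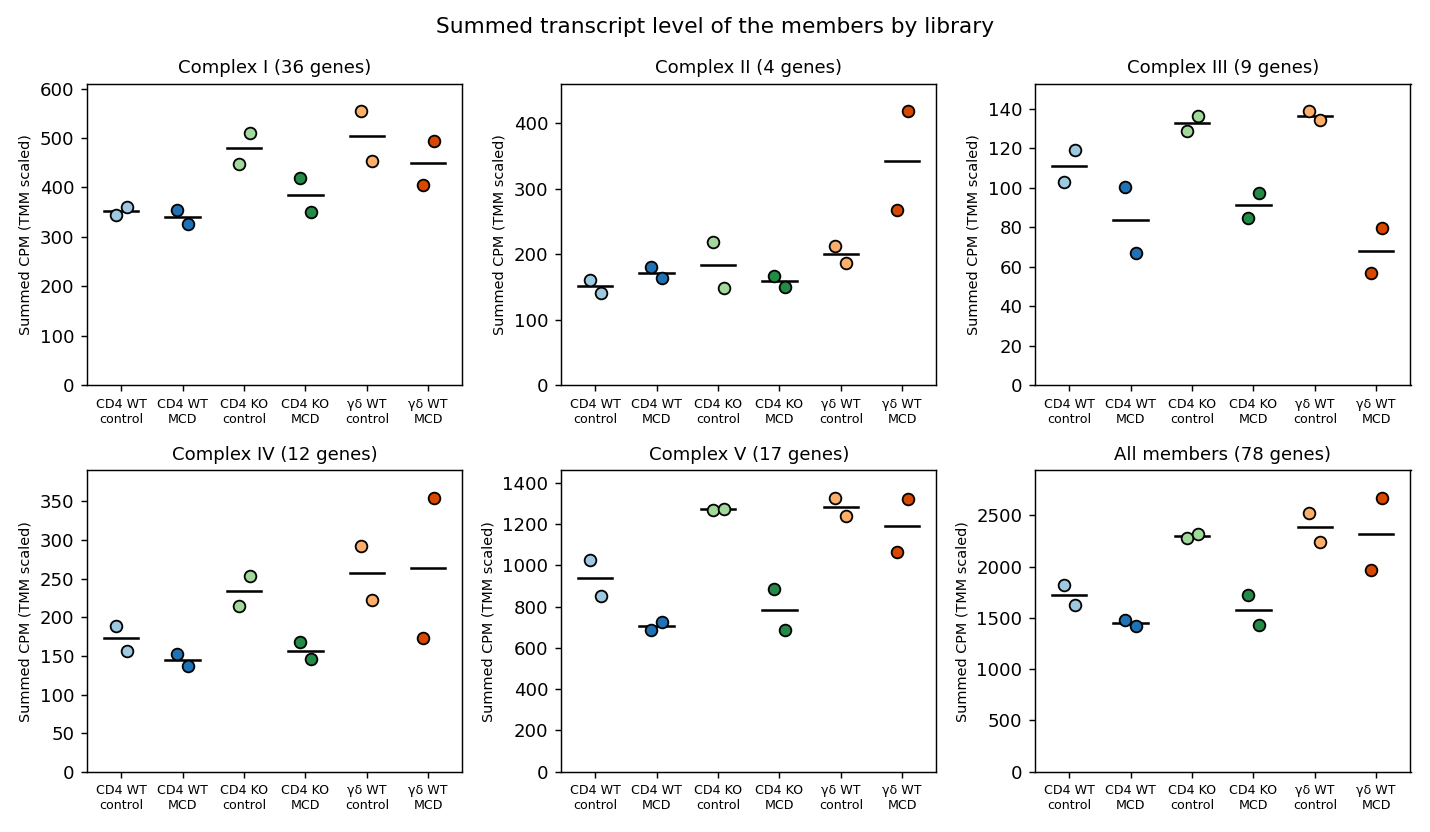
Summed TMM-scaled CPM of the members of each complex and of all members (vertical axes, from 0) in the 12 libraries, grouped by cell type, genotype and diet; points are libraries and bars are the mean of 2. The γδ MCD group has the lowest mean of complex III and the highest of complex II, and the 2 γδ MCD libraries lie apart in complex IV (173 and 355 CPM).

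All members together came to 1823 and 1628 CPM in wild-type CD4+ control libraries and to 1475 and 1419 CPM on the MCD diet. In γδTCR-/- CD4+ cells they came to 2279 and 2319 CPM on the control diet and to 1726 and 1427 CPM under MCD. In γδ T cells they came to 2525 and 2237 CPM on the control diet and to 1963 and 2670 CPM on the MCD diet. Both CD4+ genotypes were lower on the MCD diet without overlap, while the γδ groups overlapped. The same held in CPM without the TMM factor. With Atp5b left out of the sum the wild-type CD4+ groups overlapped on the TMM scale (1190 and 1147 against 1188 and 978 CPM), and the γδTCR-/- groups overlapped without the TMM factor (1361 and 1394 against 1431 and 1237 CPM).

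The diet comparison in γδ T cells had no member past the threshold and a spread of large differences in both directions. edgeR's quasi-likelihood test, adjusted by Benjamini-Hochberg over 16218 genes, called 0 of 77 members (percent called among all genes, 0%), and the smallest adjusted p of a member was 0.0936. At an unadjusted p under 0.05 there were 5 members higher on the MCD diet (6.29% of all genes) and 10 lower (11.2% of all genes). limma-voom called 0, and DESeq2 called 16, 6 higher and 10 lower (20.8%, against 13% of all genes). The members' median log2 fold change stood at -0.83, that of all genes tested at -0.06, with 23 members above 0 and 54 below. The libraries of the 2 diets did not overlap in 8 members that were higher on the MCD diet (10.4%, against 11.1% of all genes) and 25 that were lower (32.5%, against 22.1% of all genes).

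Complex I gave the lower end of this comparison. Ndufa8 (chr2:36036326-36049406; gene coordinates are those of GENCODE on GRCm38), an accessory subunit on the intermembrane side, had 354 and 293 reads on the control diet and 0 and 1 reads on the MCD diet. The CD4+ libraries held 38 to 301 reads of it, so both γδ MCD libraries lay below all others. The ratio of control to MCD in scaled reads was 458 with a counting interval (exact, 95%) of 81.9 to 18123, and the fitted log2 fold change, which depends on the prior count, was -6.96 (SE 1.60; edgeR's quasi-likelihood test, adjusted p = 0.0936).

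Ndufb10 (chr17:24722060-24724478), an accessory subunit of the membrane arm, lay at 42.8 and 34.4 CPM on the control diet and at 1.24 and 3.29 CPM on the MCD diet. The groups did not overlap, the control libraries were the highest of the 12 and the MCD libraries the lowest, and the log2 fold change was -4.03 (SE 1.07; edgeR's quasi-likelihood test, adjusted p = 0.12). Ndufb6, another membrane arm subunit whose exons overlap Smim27 on the other strand, had 399 and 30 control reads against 1 and 1 under MCD, a difference carried mostly by control replicate 6. Strand use in the counting is not given in the sources used here, so reads of overlapping genes cannot be told apart.

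By role, 24 of 28 tested accessory subunits of complex I were below 0 with a median log2 fold change of -1.72, and of the 7 core subunits that carry its flavin and iron-sulphur centres or bind ubiquinone 4 were below 0 with a median of -0.09. Ndufa4 is counted with complex I by its symbol but is a subunit of complex IV, and is in neither group. The core subunits summed to 72.9 and 64.6 CPM on the control diet and 126 and 88.1 CPM on the MCD diet, and the accessory subunits to 458 and 358 against 275 and 399 CPM. The core sums did not overlap and the accessory sums did. Of the core sums the 6 subunits other than Ndufs1 made up 54.9 and 47.3 CPM on the control diet and 52.4 and 41.0 CPM under MCD, which overlap. No test was made of the difference between the 2 roles.

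Ndufa10 ran the other way within complex I. This accessory subunit, related in sequence to nucleoside kinases (chr1:92439010-92473860), lay at 64.2 and 44.7 CPM on the control diet and at 125 and 248 CPM on the MCD diet. Both MCD libraries were above the 10 others (29.5 to 76.0 CPM), the mean ratio was 3.42, and the log2 fold change of 1.77 (SE 0.50) had an adjusted p of 0.133 in edgeR's quasi-likelihood test. Ndufs1, the largest core subunit, lay at 18.0 and 17.3 CPM against 73.3 and 47.2 CPM (log2 fold change 1.77, SE 0.64, edgeR's quasi-likelihood test adjusted p = 0.211), with no overlap. Its exons overlap Eef1b2 and Ino80dos on the other strand.

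**Figure D2:**
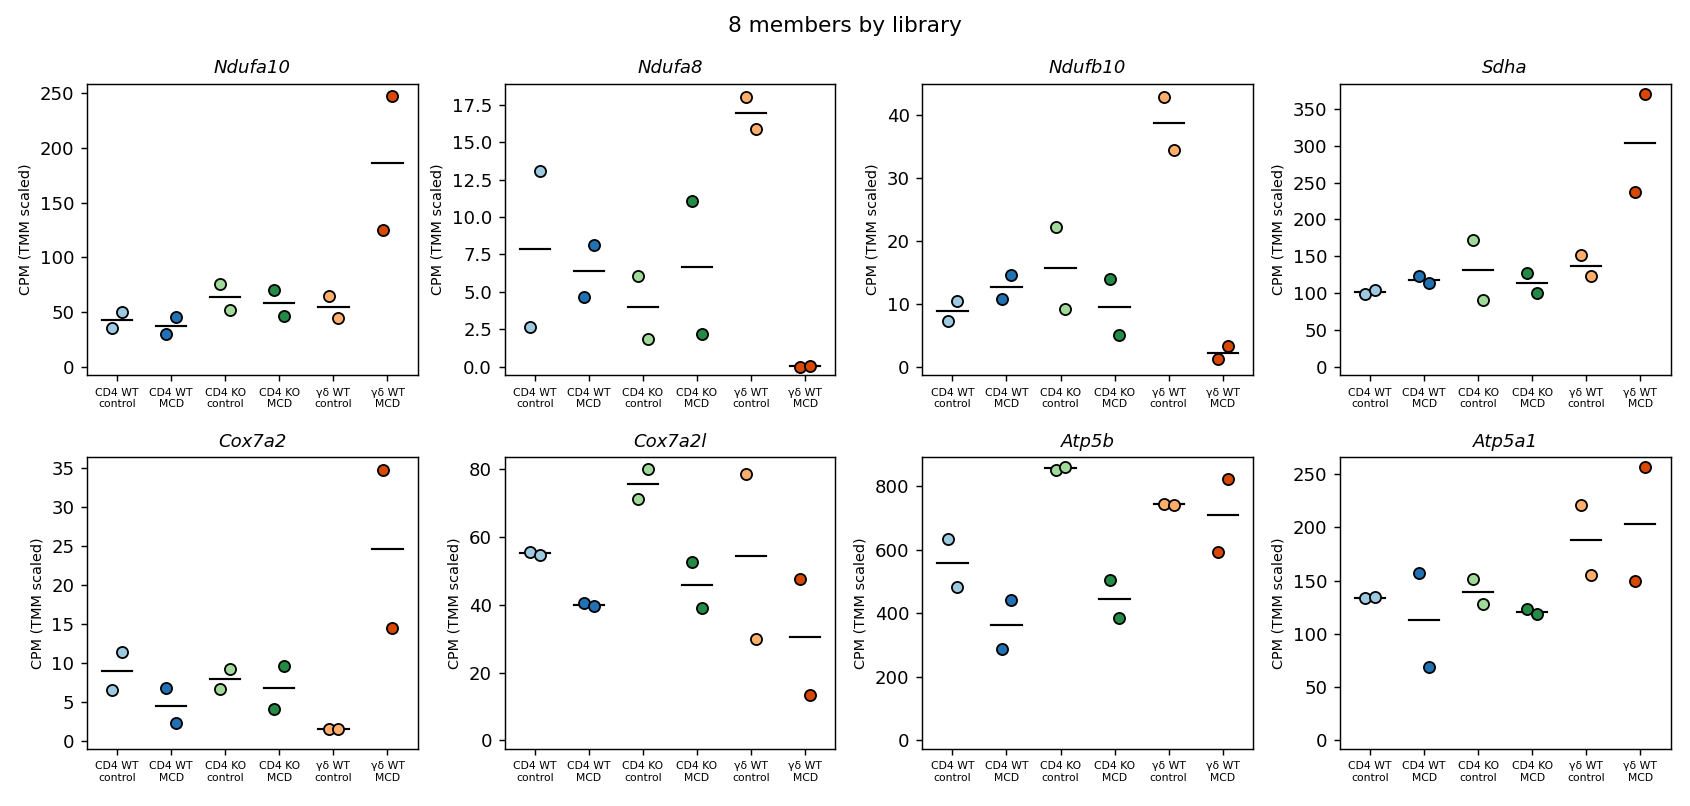
TMM-scaled CPM (vertical axes) of 8 members in the 12 libraries by group; points are libraries and bars are the mean of 2. In the γδ MCD libraries Ndufa10, Sdha and Cox7a2 lie above, and Ndufa8 and Ndufb10 below, all 10 other libraries.

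Complex II, the only complex that also works in the tricarboxylic acid cycle, rested on Sdha. Its sum was 213 and 187 CPM on the control diet and 267 and 419 CPM under MCD in γδ T cells. Sdha (chr13:74322254-74350280) lay at 151 and 123 CPM against 236.5 and 370.3 CPM, above all 10 other libraries (90.6 to 172 CPM), with a log2 fold change of 1.14 (SE 0.38; edgeR's quasi-likelihood test, adjusted p = 0.181). Sdhc, a membrane anchor, lay at 40.8 and 39.9 CPM against 4.87 and 10.01 CPM (log2 fold change -2.42, SE 0.79, edgeR's quasi-likelihood test adjusted p = 0.177). Within the 4 genes, then, the γδ MCD libraries were the highest of all for Sdha and the lowest of all for Sdhc. Sdhb lay at 5.24 and 5.31 CPM against 25.4 and 2.15 CPM and Sdhd, the other anchor, at 15.3 and 18.7 against 0.33 and 36.5 CPM, so that the MCD replicates lay on both sides of the control libraries in both.

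Complex III sums were 139 and 134 CPM on the control diet and 56.5 and 79.5 CPM under MCD in γδ T cells, with 8 of 9 members below 0 and a median log2 fold change of -1.60. Uqcrfs1, the Rieske iron-sulphur protein (chr13:30540308-30545362), lay at 35.9 and 25.6 CPM against 5.04 and 9.14 CPM without overlap. All 5 small subunits were below 0. Uqcrc1, named after its values were seen, was the member above 0. It lay at 4.48 and 4.60 against 9.49 and 23.3 CPM without overlap. In CPM without the TMM factor the complex III sum was also lower without overlap (37.1 and 60.7 against 119 and 107).

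Complexes IV and V were mixed. In complex IV, 5 members were above 0 and 6 below, with a median of -0.09. Cox7a2 (chr9:79755361-79759878), the widely used isoform of subunit 7a, lay at 1.53 and 1.46 CPM on the control diet and at 34.8 and 14.5 CPM on the MCD diet. The control libraries were the lowest of the 12 and the MCD libraries the highest, and the log2 fold change was 3.95 (SE 1.23; edgeR's quasi-likelihood test, adjusted p = 0.16). Its relative Cox7a2l (chr17:83501918-83517330) lay at 78.5 and 30.0 CPM against 47.5 and 13.4 CPM, with overlap. Per length the Cox7a2 to Cox7a2l ratio of γδ MCD libraries stood at 0.888 and 1.32, against 0.0236 to 0.296 in the other 10.

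Cox4i1, the ubiquitous isoform of subunit 4, whose exons overlap Emc8 on the other strand, lay at 49.5 and 9.69 CPM against 0.248 and 28.2 CPM in γδ T cells. Cox8a, a small membrane subunit, lay at 30.6 and 11.2 against 6.60 and 72.4 CPM. In both genes MCD replicate 2 lay below the control libraries, and replicate 4 lay between them for Cox4i1 and above them for Cox8a. In complex V, Atp5b lay at 744 and 741 CPM against 593 and 822 CPM, and Atp5a1 at 221 and 156 against 149 and 256 CPM, with overlap in both. Other members of the group did separate. Atp5c1 (163 and 152 against 94.4 and 76.8 CPM), Atp5e, Atp5k and Atp5g2 were lower on the MCD diet without overlap. Atp5f1 (26.3 and 31.8 against 37.1 and 36.0 CPM) and Atp5sl were higher without overlap. Members were picked for this list after their values were seen. The exons of Atp5a1 overlap Haus1 on the other strand. The 3 genes that encode one and the same c subunit, Atp5g1, Atp5g2 and Atp5g3, were split differently in the γδ MCD libraries: Atp5g3 lay at 40.9 and 2.96 CPM and Atp5g1 at 1.82 and 14.2 CPM in the γδ MCD replicates 2 and 4, and Atp5g2 had no read in either.

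Leaving out one γδ MCD library moved these calls. Without replicate 4, edgeR's quasi-likelihood test called 8 members (Ndufa8, Ndufb10, Sdhc, Cox7a2, Cox4i1, Ndufa9, Ndufv2 and Sdhd), and without replicate 2 it called 5 (Ndufa10, Sdha, Atp5e, Ndufa1 and Ndufb5), no gene being in both. These are 10.3% and 6.41% of 78 members tested, against 9.03% and 4.25% of all genes in the same fits. These names follow from the fits without a library and were chosen after their values were seen. A group of 1 library was then assumed to vary like the other groups. Sinusoidal endothelial markers (10 genes) summed to 698 and 1384 CPM in γδ control and to 147 and 128 CPM in γδ MCD libraries, with Kdr, Oit3 and Lyve1 at 0 in both of the latter. Macrophage and Kupffer cell markers (10 genes) summed to 904 and 1731 against 2066 and 1532 CPM, with Clec4f at 0 in both MCD libraries. Hepatocyte markers (12 genes) summed to 45.3 and 72.5 against 425 and 52.7 CPM. Of the 12, 6 were at 0 in both control libraries and 7 in both MCD libraries. The 6 general T cell markers summed to 2559.5 and 2240.1 against 1485 and 1499.97 CPM, 7 γδ T cell markers to 3345 and 3161 against 2444 and 1884 CPM, and 5 NK cell markers to 495 and 459 against 238.4 and 256.5 CPM. B cell markers (6 genes) summed to 610.01 and 635 against 282 and 492 CPM, CD8 markers (2 genes) to 327 and 190.2 against 82.8 and 69.9 CPM, and neutrophil and monocyte markers (7 measured genes) to 84.6 and 119 against 201 and 299 CPM. CD4 T cell markers (5 genes) lay at 226 to 426 CPM, and erythroid and stellate cell markers (6 genes each) at 0 to 15.06 CPM in the 4 libraries. The macrophage, hepatocyte, CD4 T cell and stellate cell sums overlapped between the diets, and the sums of the other 8 lists did not. The part of these in the diet differences was not tested.

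Member length moved with the diet difference in γδ T cells. Of the 20 tested members under 1000 bases (length implied by the deposited FPKM) 16 were below 0, of the 26 from 1000 to under 2000 bases 22, and of the 31 of 2000 bases or more 16. Over all genes tested the shares above 0 in the same classes were 32.1%, 35.7% and 45.7%, where 4, 4 and 15 members were above 0. The rank correlation of length with the log2 fold change was 0.36 over 77 members and 0.09 over 16218 genes, which share the same 4 libraries and are not independent. In γδTCR-/- CD4+ cells the correlation was 0.17 over the members. For γδ against wild-type CD4+ cells on the control diet it was -0.40 over the members and 0.06 over all genes. On the MCD diet it was 0.11 and 0.14. The γδ control libraries are shared by the diet comparison and the control diet comparison of cell types, and the cause of the length pattern was not tested.

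**Figure D3:**
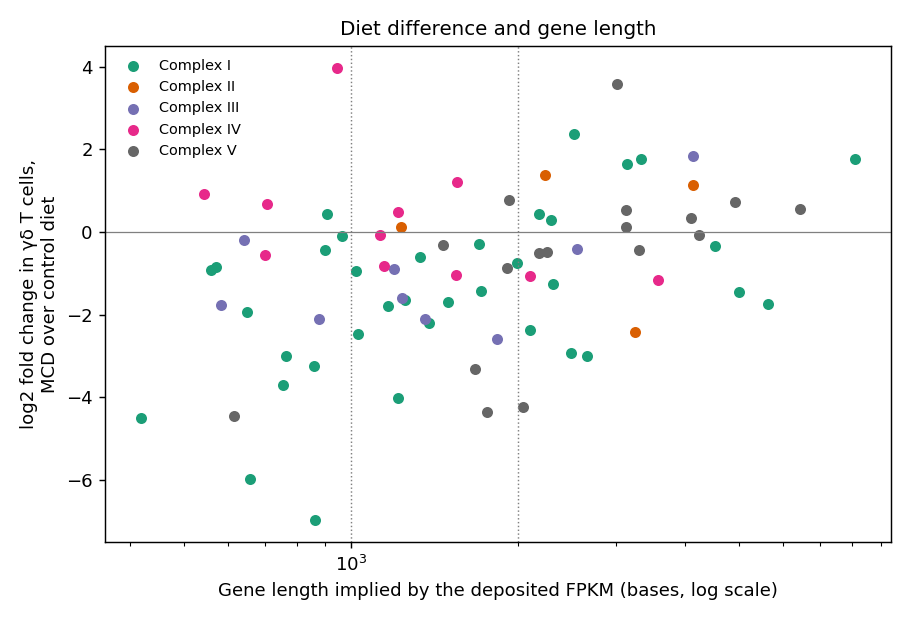
log2 fold change of the 77 tested members in γδ T cells, MCD over control diet (vertical axis), against gene length implied by the deposited FPKM in bases (horizontal, log scale), coloured by complex, with dotted lines at 1000 and 2000 bases. Of the 46 members under 2000 bases 38 lie below 0, and of the 31 longer ones 16 do.

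In CD4+ T cells of wild-type mice no member passed the threshold for diet (edgeR's quasi-likelihood test, 0 of 77; percent called among all genes, 0%). At an unadjusted p under 0.05 there were 0 higher (0.943% of all genes) and 1 lower (1.19%), and DESeq2 and limma-voom each called 0. The members' median log2 fold change stood at -0.21, that of all genes at 0, with 49 of 77 members below 0 and 10 of 11 in complex IV. Libraries did not overlap in 7 members higher (9.09%, against 16.7% of all genes) and 17 lower (22.1%, against 17.2% of all genes) on the MCD diet. Atp5b was the member with the smallest p: it lay at 633 and 481 CPM on the control diet and at 288 and 441 CPM on the MCD diet, a log2 fold change of -0.61 (SE 0.27; edgeR's quasi-likelihood test, adjusted p = 1). Cox7a2l lay at 55.4 and 54.8 against 40.4 and 39.5 CPM, with replicates close together and no overlap.

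In CD4+ T cells of γδTCR-/- mice the diet comparison again called 0 of 77 members (edgeR's quasi-likelihood test; percent called among all genes, 0.037%), with 1 higher (3.82% of all genes) and 2 lower (2.24%) at an unadjusted p under 0.05. limma-voom called 0, and DESeq2 called 1, Uqcrfs1 (1.3%, against 1.64% of all genes). The median was -0.32 against 0.03 over all genes, with 50 members below 0. Libraries did not overlap in 10 members higher (13%, against 20.8% of all genes) and 20 lower (26%, against 18.1% of all genes). Atp5b lay at 850 and 861 CPM on the control diet and at 504 and 385 CPM on the MCD diet. The 4 values were apart and the replicates of the control diet within a few percent of each other, and the log2 fold change was -0.94 (SE 0.27; edgeR's quasi-likelihood test, adjusted p = 0.428). It had an adjusted p of 0.0415 and 0.0472 in the fits without γδ MCD replicate 2 or 4, which are not in this comparison but share its estimate of the spread.

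Uqcrfs1 in these cells lay at 33.8 and 26.8 CPM on the control diet and at 5.44 and 8.33 CPM on the MCD diet, also without overlap (log2 fold change -2.12, SE 0.83, edgeR's quasi-likelihood test adjusted p = 0.787). In wild-type CD4+ cells it lay at 12.4 and 12.7 against 17.01 and 14.2 CPM, the opposite order, and the test of the difference between genotypes gave a log2 value of -2.43 (SE 1.14; edgeR's quasi-likelihood test, adjusted p = 1). Ndufb7, a complex I accessory subunit, gave the largest difference upward, 1.71 and 0.721 against 28.8 and 4.19 CPM (log2 fold change 3.66, SE 1.58, edgeR's quasi-likelihood test adjusted p = 0.787). Its wild-type values of 3.64 and 17.6 against 9.58 and 7.02 CPM overlapped.

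**Figure D4:**
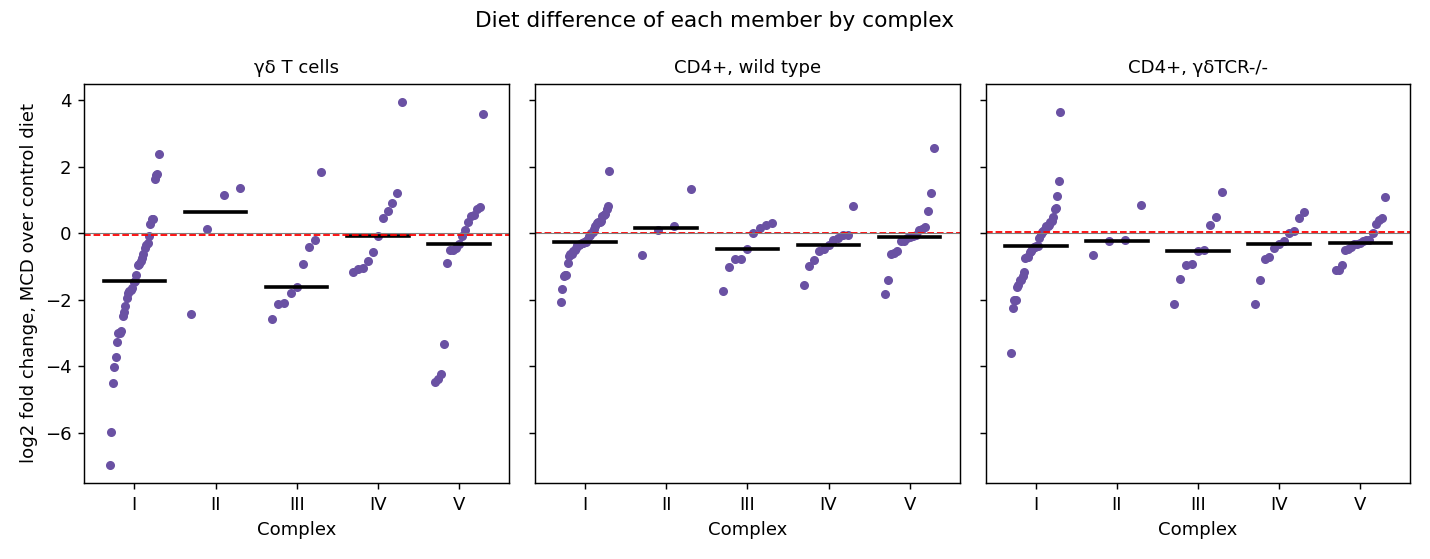
log2 fold change of each tested member, MCD over control diet (vertical axis), by complex (horizontal) in γδ T cells and in CD4+ T cells of both genotypes; points are genes, black bars the median of the complex, the dashed red line the median of all genes tested. The medians of complexes I and III in γδ T cells are -1.44 and -1.60, and no median in CD4+ cells is below -0.52.

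The diet differences were compared directly. Between γδ and wild-type CD4+ cells edgeR's quasi-likelihood test of the difference called 0 of 77 members (percent called among all genes, 0%), with 2 higher (3.47% of all genes) and 2 lower (7.1%) at an unadjusted p under 0.05. limma-voom called 0, and DESeq2 called 3, Cox7a2 higher and Ndufa8 and Ndufb10 lower (3.9%, against 3.98% of all genes). The smallest adjusted p was 0.345, for Ndufa8 with a log2 difference of -6.67 (SE 1.85). Between the CD4+ genotypes it called 0 (percent called among all genes, 0%), with 0 members higher (2.85% of all genes) or lower (1.48%) at an unadjusted p under 0.05 and 0 called by DESeq2 and limma-voom. These comparisons share their wild-type CD4+ libraries.

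Genotype was compared within CD4+ cells. On the control diet 0 of 77 members were called (edgeR's quasi-likelihood test; percent called among all genes, 0.0247%; 2 higher, 1.23% of all genes, and 0 lower, 2.79%, at an unadjusted p under 0.05; 0 by DESeq2 and limma-voom). The median was 0.19 against -0.03 over all genes, 48 members were higher in γδTCR-/- cells and 29 lower, and 19 lay above without overlap (24.7%, against 16.7% of all genes) and 10 below (13%, against 20.6% of all genes). With library size alone as the scale the median turned to -0.18, where that of all genes was -0.38, and the summed members no longer separated: 2170 and 2217 CPM without the TMM factor in γδTCR-/- cells against 2202 and 2039 in wild-type cells. Atp5b, at 850 and 861 against 633 and 481 CPM, was 1.54-fold higher on the TMM scale (log2 fold change 0.62, SE 0.27, edgeR's quasi-likelihood test adjusted p = 1). In the same 2 γδTCR-/- libraries cytosolic ribosomal protein genes (89 genes) summed to 11027 and 13431 CPM against 8124 and 6409 CPM, and 6 B cell markers to 514 and 639 against 286 and 351 CPM. Their part was not tested.

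On the MCD diet 0 of 77 members were called between genotypes (edgeR's quasi-likelihood test; percent called among all genes, 0%; 1 higher, 1.13% of all genes, and 0 lower, 0.943%, at an unadjusted p under 0.05; 0 by DESeq2 and limma-voom). The member at that p was Ndufs4, an accessory subunit needed for complex I assembly, at 12.6 and 4.99 CPM in wild-type and 30.8 and 33.7 CPM in γδTCR-/- cells (log2 fold change 1.87, SE 0.78, edgeR's quasi-likelihood test adjusted p = 1). Without overlap, 6 members were higher (against 15.9% of all genes) and 9 lower (against 17% of all genes).

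γδ T cells were set against wild-type CD4+ cells on each diet. Macrophage and Kupffer cell markers summed to 904 to 2066 CPM in the γδ libraries and 13.7 to 58.6 CPM in all CD4+ libraries, and endothelial markers to 128 to 1384 and 76.5 to 171 CPM, and their part in the differences was not tested. On the control diet 0 of 77 members were called (edgeR's quasi-likelihood test; percent called among all genes, 0.654%), with 2 higher (5.4% of all genes) and 2 lower (5.51%) at an unadjusted p under 0.05. limma-voom called 0 and DESeq2 called 1 (1.3%, against 5.65% of all genes), Atp5sl, whose product is not an ATP synthase subunit. On the TMM scale 52 members were higher in γδ cells and 25 lower, with a median of 0.43 against -0.06 over all genes, while library size alone gave 33 higher and 44 lower and a median of -0.11 against -0.60. Without overlap 29 members were higher (37.7%, against 20.1% of all genes) and 10 lower (13%, against 25.8% of all genes). Atp5c1, the γ subunit that turns inside the ATP synthase, had the smallest p, at 163 and 152 CPM in γδ and 94.2 and 45.6 CPM in CD4+ cells (log2 fold change 1.17, SE 0.44, edgeR's quasi-likelihood test adjusted p = 0.368). All 7 core subunits of complex I were lower in γδ cells on the TMM scale (median -0.64), and 23 of 28 accessory subunits were higher (median 0.69). By length the member median was 1.14 under 1000 bases and 0.27 at 2000 bases or more (all genes -0.38 and -0.04). The part of length was not tested.

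On the MCD diet 1 member passed: Ndufa10 was higher in γδ cells, at 125 and 248 CPM against 29.5 and 45.2 CPM in CD4+ cells, with no overlap. The means differed 4.99-fold and the log2 fold change was 2.31 (SE 0.51; edgeR's quasi-likelihood test, adjusted p = 0.0314; percent called among all genes, 2.65%, of which 1.47% higher and 1.18% lower). At an unadjusted p under 0.05 there were 7 higher (8.52% of all genes) and 6 lower (13.4%). limma-voom called 4 (5.19%, against 4.85% of all genes) and DESeq2 called 13 (16.9%, against 17.8%), and edgeR without γδ MCD replicate 2 called 9 of 78 (11.5%, against 6.39%). With library size alone Ndufa10 had a log2 fold change of 1.55 (edgeR's quasi-likelihood test, adjusted p = 0.101). That fit called 2 other members (2.6%, against 4.61% of all genes), both lower in γδ cells, among them Ndufa8 (-5.97, adjusted p = 0.0355). Without wild-type CD4+ MCD replicate 1 or 3 the adjusted p of Ndufa10 was 0.23 and 0.111, and with only the compared groups in the fit 0.16.

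Averaged over both diets, 2 of 77 members were higher in γδ cells (edgeR's quasi-likelihood test; percent called among all genes, 5.96%, of which 3.42% higher and 2.53% lower) and 0 lower, with 10 higher (9.94% of all genes) and 4 lower (16.1%) at an unadjusted p under 0.05. limma-voom called 3 (3.9%, against 10% of all genes) and DESeq2 called 11 (14.3%, against 18.9%), and edgeR without γδ MCD replicate 2 called 9 of 78 (11.5%, against 9.75%). Ndufa10 had a log2 fold change of 1.33 (SE 0.35; edgeR's quasi-likelihood test, adjusted p = 0.0403). Its γδ control libraries, at 64.2 and 44.7 CPM, overlapped with the CD4+ control libraries at 35.8 and 49.7 CPM. Atp5b (chr10:128083273-128090391) had 0.69 (SE 0.19; edgeR's quasi-likelihood test, adjusted p = 0.0492), from 744, 741, 593 and 822 CPM in the γδ libraries and 633, 481, 288 and 441 CPM in the wild-type CD4+ libraries, with overlap between the lowest γδ and the highest CD4+ value. With library size alone these values were 0.66 (adjusted p = 0.225) for Ndufa10 and 0.01 (adjusted p = 1) for Atp5b. In that fit 3 members were called, all lower in γδ cells (3.9%, against 12.2% of all genes). The Atp5b call was also lost without any 1 of 5 libraries (CD4+ control 2 or 3, γδ control 6 or 7, CD4+ MCD 1) and the Ndufa10 call without any 1 of 5 (CD4+ control 2 or 3, γδ control 6, CD4+ MCD 1 or 3).

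Without overlap between all 4 γδ and all 4 wild-type CD4+ libraries, 6 members were higher (7.79%, against 5.56% of all genes): Atp5d, Cox5a, Cox6a1, Cox6b1, Ndufs4 and Sdha, of which Atp5d and Cox5a were named after their values were seen. In the other direction 1 member was lower (1.3%, against 8.86% of all genes). Cox6b1, which lies where complex IV pairs into a dimer, lay at 10.2 and 22.0 CPM in γδ control and 31.4 and 19.8 CPM in γδ MCD libraries, against 3.36 to 7.85 CPM in the 4 wild-type CD4+ libraries. Cox6a1, a regulatory subunit, lay at 30.7, 40.3, 16.8 and 31.7 CPM against 7.37 to 13.4 CPM. Both are on the TMM scale. In CPM without the TMM factor the γδ and wild-type CD4+ libraries overlapped in each of the 6 members. Cox6a1, for example, had 204 reads of 18466126 counts in γδ MCD replicate 2 and 291 of 17988045 in wild-type CD4+ control replicate 2.

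**Figure D5:**
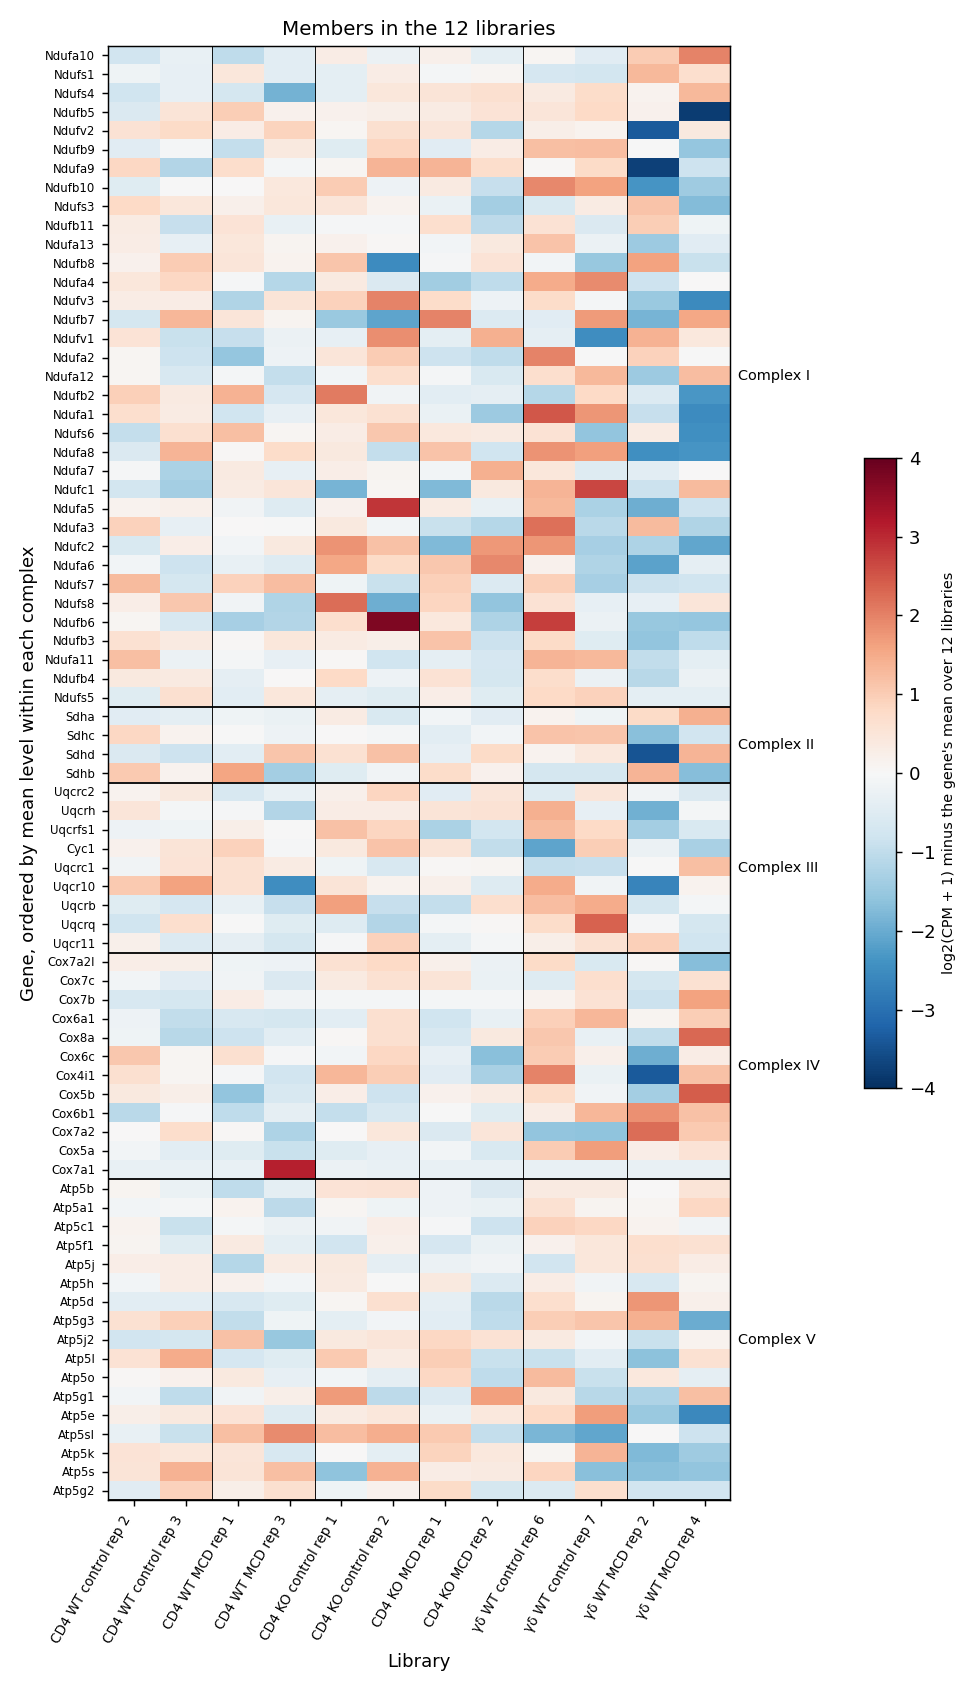
log2(CPM + 1) of 77 of the 78 members minus the mean of each gene over 12 libraries (colour, -4 to 4), with genes in rows by complex and libraries in columns by group. The strongest blue cells lie in the 2 γδ MCD columns, where 9 and 5 members had no read, and often in 1 of the 2 only; Cox7a1 is red in a single wild-type CD4+ MCD library.

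Of the 13 subunits of the same enzymes that are encoded in mitochondrial DNA, 7 were higher in γδ than in wild-type CD4+ cells on the control diet and 7 on the MCD diet (edgeR's quasi-likelihood test, Benjamini-Hochberg adjusted), with median log2 fold changes of 1.504 and 1.76. Of all genes 0.654% and 2.65% were called in either direction. The 13 differ widely in reads: mt-Co3 had 1 to 25 and mt-Nd4l 6 to 145 reads per library, against 74892 to 194254 for mt-Cytb. The transcript mt-Nd2, for a proton-pumping subunit of complex I, had log2 fold changes of 2.08 and 2.40 (adjusted p = 0.00119 and 0.000359 in edgeR's quasi-likelihood test), and mt-Co1, for the catalytic subunit of complex IV, 0.88 and 1.46 (adjusted p = 0.00337 and 7.76e-05). Their sum, in CPM without the TMM factor, was 38263 and 49776 in γδ control, 45270 and 54328 in γδ MCD and 25467 to 29901 in the 4 wild-type CD4+ libraries, so the order held on both scales. Reads of the 78 members per 100 reads of these 13 genes came to 5.66 and 3.58 in γδ control and 2.85 and 3.76 in γδ MCD libraries, against 5.95 to 8.15 in wild-type and 5.24 to 6.92 in γδTCR-/- CD4+ libraries. All 4 γδ values lay below the wild-type CD4+ values. For diet and for genotype edgeR's quasi-likelihood test called 0 of the 13. At an unadjusted p under 0.05 there were 4 higher and 0 lower for diet in γδ cells (all genes 6.29% and 11.2%). For diet there were 1 and 2 in wild-type (0.943% and 1.19%) and 0 and 1 in γδTCR-/- CD4+ cells (3.82% and 2.24%). For genotype there were 5 and 0 on the control diet (1.23% and 2.79%) and 1 and 0 on the MCD diet (1.13% and 0.943%).

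Other genes of the pathway were taken from fixed lists. For diet in γδ cells edgeR's quasi-likelihood test called 0 genes of the lists that follow. At an unadjusted p under 0.05 all genes had 6.29% higher and 11.2% lower. At that p the 54 tested assembly factors of the 5 complexes had 1 higher and 11 lower. The 23 electron carriers and shuttles had 0 and 2, and the 20 tricarboxylic acid cycle genes 3 and 4. The 76 mitochondrial ribosome genes had 3 and 10, and the 24 regulators of mitochondrial biogenesis 1 and 4. The regulators Twnk, the mitochondrial DNA helicase, and Yy1, a transcription factor, had log2 fold changes of -7.32 (adjusted p = 0.0912) and -1.89 (adjusted p = 0.104), and Nrf1 had 1.19 (adjusted p = 0.32) in edgeR's quasi-likelihood test. Between γδ and wild-type CD4+ cells on the MCD diet Sod2, the superoxide dismutase of the matrix, was higher (log2 fold change 2.71, adjusted p = 0.00355), as were Cs, citrate synthase (1.86, adjusted p = 0.0297), Ucp2, an inner membrane carrier (0.97, adjusted p = 0.0448), and Slc2a3, a glucose transporter (2.13, adjusted p = 0.0447). Acadm, of fatty acid oxidation (-4.69, adjusted p = 0.0398), Ssbp1, which binds single-stranded mitochondrial DNA (-3.53, adjusted p = 0.0329), and Mrpl37, of the mitochondrial ribosome (-6.87, adjusted p = 0.0494), were lower. These are edgeR's quasi-likelihood tests on the TMM scale, and the fitted folds of genes with few reads depend on the prior count. Between the cell types on the MCD diet 2.65% of all genes were called. Macrophage and Kupffer cell markers summed to 2066 and 1532 CPM in these γδ libraries and to 13.7 and 17.2 CPM in the wild-type CD4+ libraries. Their part in the differences was not tested.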

How the data were processed

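RNA of sorted T cells was sequenced in 12 libraries, 2 in each of 6 groups. Per the submitters' processing notes, which name bcl2fastq, STAR, featureCounts, DESeq2 and mm10 (GRCm38) without versions, the authors made raw read counts per gene. They also deposited FPKM, whose scaling followed median-of-ratios size factors when checked against the counts. Strand use and annotation release are not given in the sources used here. FPKM served only for levels between genes and for an alternative. Counts were tested with edgeR 4.0.16 (quasi-likelihood, TMM, filterByExpr with a minimum of 10 and a total of 15, prior count 2) in R 4.3.3, fitted on all 12 libraries and adjusted by Benjamini-Hochberg over 16218 genes at 0.05. DESeq2 1.42.0, limma 3.58.1 (voom and log2(FPKM + 1 or 0.1)), other scalings, filters, fewer groups, a replicate block and leaving out each library were alternatives. The cell type comparison averaged over diets, and no other, was also run on simulated counts drawn with the fitted spread. That run does not check the diet or genotype comparisons. Members, roles and gene lists were chosen with earlier results of these data known. Named members were those past the threshold, the 4 with the smallest p in each comparison and direction, the 2 highest and the lowest in each complex, and isoform families. Same-numbered γδTCR-/- libraries did not deviate together (correlation 0.0062 over 10626 genes). Intervals on reads cover counting error only. Values of 1 member by name are not reported here.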

Additional observations from a re-analysis of the deposited data

Results flagged for a closer look

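Reads of 3 isoform genes that entered no comparison were unevenly spread over the libraries. Cox7a1, the heart and muscle isoform of subunit 7a of complex IV, had 206 of its 207 reads in wild-type CD4+ MCD replicate 3. Cox8b, another heart and muscle isoform, had 44 of 48 reads in wild-type CD4+ control replicate 2. Cox6b2, the testis isoform, had 24 reads in γδ MCD replicate 4, 11 and 3 in the γδ control libraries and 0 in the other 9. Each exceeds the 3 reads that a count of 0 allows, and each is given as a value only.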

How the results depend on the processing

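Calls were few and moved with the tool, as did the share of all genes called. For diet in γδ cells members called went from 0 to 16 (DESeq2), 3 and 4 (limma on log2(FPKM + 1) and log2(FPKM + 0.1)) and 1 (no filter), where 13%, 0.913%, 1.29% and 2.14% of all genes were called. In the same order of DESeq2 and both FPKM scales, γδ against CD4+ on the MCD diet went from 1 to 13, 3 and 5, with 4 by limma-voom, 4 without filter, 3 at a mean of 50 counts or more, 2 by library size and 0 with only the compared groups. All genes had 17.8%, 4.06% and 5.75%, then 4.85%, 4.14%, 6.22% and 4.61%. The mean over diets went from 2 to 11, 5 and 6, with 4 at a mean of 50 counts or more and 0 with only the compared groups, where all genes had 18.9%, 6.88%, 8.88% and 10.3% before the last. DESeq2 called 1 for diet in γδTCR-/- cells, 1 for cell type on the control diet and 3 for the interaction of diet and cell type. The member median minus that of all genes was -0.50 on log2(FPKM + 1) for diet in γδ cells (-0.77 as reported). For cell type on the MCD diet (0.15) it was 0.48 by limma-voom, -0.042 on log2(FPKM + 1), -0.17 without filter, -0.0092 at a mean of 50 counts or more and 0.0050 with only the compared groups. For the mean over diets (0.38) these were 0.55, 0.18, 0.26 and 0.20, without the last. For the interaction of diet and cell type (-0.37) it was -0.59 and -0.56 on the FPKM scales and -0.59 without filter. The log2 ratio of the summed level in CPM without the TMM factor was -0.25 for diet in γδ cells, -0.24 in γδTCR-/- cells, 0.049 for genotype on the control diet and -0.10 for cell type on either diet, against -0.04, -0.54, 0.41, 0.46 and 0.68 on the TMM scale. In CPM of nuclear counts it was -0.26 for diet in γδ cells and 0.28 and 0.26 for cell type, and without Atp5b it was -0.35 for diet in γδTCR-/- cells. The cause of these shifts was not tested. Leaving out each library gave 0 to 8 calls and a median difference of -0.85 to -0.30 for diet in γδ cells, 0 to 1 calls in γδTCR-/- cells, 0 to 9 calls and -0.10 to 0.29 for cell type on the MCD diet, 0 to 9 calls and 0.16 to 0.44 for the mean over diets, and 0 to 4 calls and -0.93 to -0.046 for the interaction with cell type. The median difference ran from -0.14 to 0.10 for genotype on the MCD diet, 0.36 to 0.82 for cell type on the control diet and -0.53 to -0.15 for the interaction with genotype. Summed log2 ratios ran from -0.28 to 0.17 for diet in γδ cells and 0.44 to 0.88 for cell type on the MCD diet. With a replicate block in the γδTCR-/- libraries 0 members were called for diet and for the interaction with genotype, with median differences of -0.39 and -0.36, and no call changed. The sum without Atp5b was added after seeing the data. With 2 libraries a group and 9 and 5 members without a read in γδ MCD, low members there were the least precise.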
